A study of Mus musculus with 12 samples.

Results

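The unfolded protein response and the integrated stress response were followed through 40 mouse genes, chosen as a list of names by their known roles and matched to the rows of the table through their Ensembl identifiers. All 40 were among the 13233 genes listed. They fell into 14 endoplasmic reticulum (ER) chaperones and folding enzymes, 3 genes of ER-associated degradation, 4 genes for the stress sensors and the transcription factor Xbp1, 8 regulators and targets of the integrated stress response, 6 genes of amino acid synthesis and 5 amino acid transporters.

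RNA was measured in primary skeletal muscle fibroblasts from the lower abdominal muscle of Aromhum male mice, which express the human aromatase gene under its own promoters and so convert androgen to estrogen in many tissues. All 12 samples shared this genotype. Cells were kept for 48 hours in vehicle (ethanol and DMSO), in 10 nM estradiol (E2), in 10 nM E2 with 100 nM fulvestrant, or in 100 nM fulvestrant alone, with 3 samples in each group. Fulvestrant is an antagonist of the estrogen receptor ESR1 that also leads to the receptor's degradation. The sources do not state whether samples with different replicate numbers came from separate mice, so p-values measure the spread between these samples, which may be technical. Samples with the same replicate number deviated together and were treated as matched. Whether they did so more than samples with different numbers was not tested.

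Read totals on the listed genes, estimated by taking each value as a whole number of reads over one factor per sample, lay between 18827792 and 44040507, and every listed gene had enough reads to pass the authors' minimum. The 10 fibroblast markers were all listed, with a summed normalized count of 487380 to 552350 with vehicle, 560907 to 623159 with E2, 422512 to 442418 with E2 plus fulvestrant and 391540 to 459609 with fulvestrant. This sum moved with treatment, and its part in the results below was not tested. Not every marker moved with the sum. Vim had 57758, 49540 and 46232 with vehicle and 65486, 58875 and 59446 with E2 plus fulvestrant. None of the 6 myogenic or 3 adipocyte markers was listed, and 1 of 5 endothelial, 2 of 5 immune, 3 of 6 pericyte and smooth muscle and 1 of 3 Schwann cell markers were. The endothelial Pecam1, immune Ptprc, pericyte Rgs5 and Schwann Sox10 were not listed. The progesterone receptor gene Pgr, a known target of ESR1, had normalized counts of 145, 268 and 304 with E2 and of 14.8, 28.4 and 27.0 when fulvestrant was added. The log2 fold change was 3.28 (SE 0.27, adjusted p = 4.7e-05, limma).

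When unfolded proteins build up in the ER, the sensors encoded by Ern1 (IRE1), Eif2ak3 (PERK) and Atf6 are activated. IRE1 splices the Xbp1 messenger, and spliced Xbp1 and cleaved Atf6 turn on genes for chaperones and for ER-associated degradation. PERK phosphorylates the translation factor eIF2, as do kinases that respond to amino acid shortage, viral RNA or heme shortage. This slows general translation but favours the translation of Atf4, whose targets make and import amino acids, charge tRNAs and, under prolonged stress, promote cell death. Atf4 activity is set largely by translation, so its messenger level is not a readout of its activity. Fibroblasts secrete much collagen and therefore carry a large folding load in the ER.

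The 2 arms of this network are read through different DNA elements, and 5 promoters are shown as examples of genes whose levels are described below. Sequence came from RefSeq (GRCm38.p6), with 36 of the 40 members matched. Hyou1, Manf, Slc7a5 and Atf6 had no entry. The searches covered both strands from 250 bases before to 50 bases after each start. Each line holds the 250 bases before the start on the gene's own strand, read 5′ to 3′, and capitals mark a match to 1 of 3 motifs. These are the C/EBP-ATF response element (CARE, TGATGNAA), the ER stress element (ERSE) and its relative ERSE-II. No matches overlapped in a member. The chaperone genes Calr (chr8:84846932-84847181, minus strand) and Creld2 (chr15:88819396-88819645, plus strand) each held an ERSE. Herpud1 (chr8:94386179-94386428, plus strand), a gene of ER-associated degradation, held a CARE followed by an ERSE-II. Atf3 (chr1:191183334-191183583, minus strand) held 1 CARE and the cystine transporter gene Slc7a11 (chr3:50443614-50443863, minus strand) held 2 in opposite directions, at bases -66 and -47 from the start.
Calr: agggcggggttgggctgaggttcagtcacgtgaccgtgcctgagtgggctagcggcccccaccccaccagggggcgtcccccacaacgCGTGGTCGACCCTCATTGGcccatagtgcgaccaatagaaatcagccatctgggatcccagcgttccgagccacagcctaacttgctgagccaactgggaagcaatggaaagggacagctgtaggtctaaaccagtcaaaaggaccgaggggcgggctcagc
Creld2: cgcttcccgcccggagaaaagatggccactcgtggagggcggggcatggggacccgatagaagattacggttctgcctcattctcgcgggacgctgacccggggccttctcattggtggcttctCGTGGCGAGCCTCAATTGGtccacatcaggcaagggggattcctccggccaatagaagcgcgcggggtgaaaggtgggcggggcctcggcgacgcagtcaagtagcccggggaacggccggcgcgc
Herpud1: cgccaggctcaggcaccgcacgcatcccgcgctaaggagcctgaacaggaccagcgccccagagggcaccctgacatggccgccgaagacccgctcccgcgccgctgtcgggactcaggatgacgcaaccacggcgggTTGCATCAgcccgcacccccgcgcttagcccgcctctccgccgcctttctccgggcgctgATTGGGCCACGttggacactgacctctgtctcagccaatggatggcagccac
Atf3: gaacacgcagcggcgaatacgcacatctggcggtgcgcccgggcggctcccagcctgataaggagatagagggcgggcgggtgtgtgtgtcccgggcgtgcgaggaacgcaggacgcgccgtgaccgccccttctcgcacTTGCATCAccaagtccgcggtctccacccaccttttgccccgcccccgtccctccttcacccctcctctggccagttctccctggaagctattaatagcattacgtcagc
Slc7a11: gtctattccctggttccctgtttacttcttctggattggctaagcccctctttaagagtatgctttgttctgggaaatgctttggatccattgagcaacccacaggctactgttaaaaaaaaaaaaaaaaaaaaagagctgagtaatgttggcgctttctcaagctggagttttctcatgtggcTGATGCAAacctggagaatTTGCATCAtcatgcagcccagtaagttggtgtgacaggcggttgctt

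An ERSE was found in 8 of the 36 members (22.2%), against 37 of all 27025 genes with a promoter in the table (0.137%). Of the 12 chaperone and folding genes with a promoter, 7 held one (Hspa5, Calr, Hsp90b1, Canx, Pdia6, Dnajc3 and Creld2), whereas 0 of the 10 amino acid genes did. The CARE was found in 7 members (Atf3, Chac1, Trib3, Vldlr, Slc7a11, Asns and Herpud1), 19.4%, against 4.51% of all genes with a promoter, and in 0 of the 12 chaperone genes and 2 of the 10 amino acid genes. The ERSE-II was found in Herpud1 and Dnajb11. The palindromic estrogen response element was in 0 of the 36 members and in 0.074% of all genes with a promoter. These matches describe letters in a short window and are not evidence of binding.

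The first question was how the 40 genes stood in E2-treated cells when ESR1 was blocked. A gene was called when its adjusted p in limma was below 0.05 and its fold change was above 1.2. With E2, 7 of the 40 members were lower than with E2 plus fulvestrant and 0 were higher. Of all genes, 4.97% were called lower and 4.62% higher. The 7 were 4 of the 5 amino acid transporters (Slc7a5, Slc3a2, Slc7a11 and Slc7a1), the mitochondrial folate enzyme gene Mthfd2, and Atf3 and Ppp1r15a of the integrated stress response. None of the 14 chaperones, the 3 degradation genes or the 4 sensor genes was called. Creld2 was called higher with scaling to the same total, without E2 replicate 1 or without E2 plus fulvestrant replicate 2, and Manf with quantile normalization. The same 7 genes were called higher with E2 plus fulvestrant than with vehicle and higher with fulvestrant alone than with vehicle, but these comparisons share groups. In bulk RNA, a change in the share of cells expressing a gene and a change in RNA per cell cannot be told apart. The fit took the replicate number as a block, and without it only Slc7a5 and Slc3a2 stayed called, beside 0.234% of all genes called lower.

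**Figure D1:**
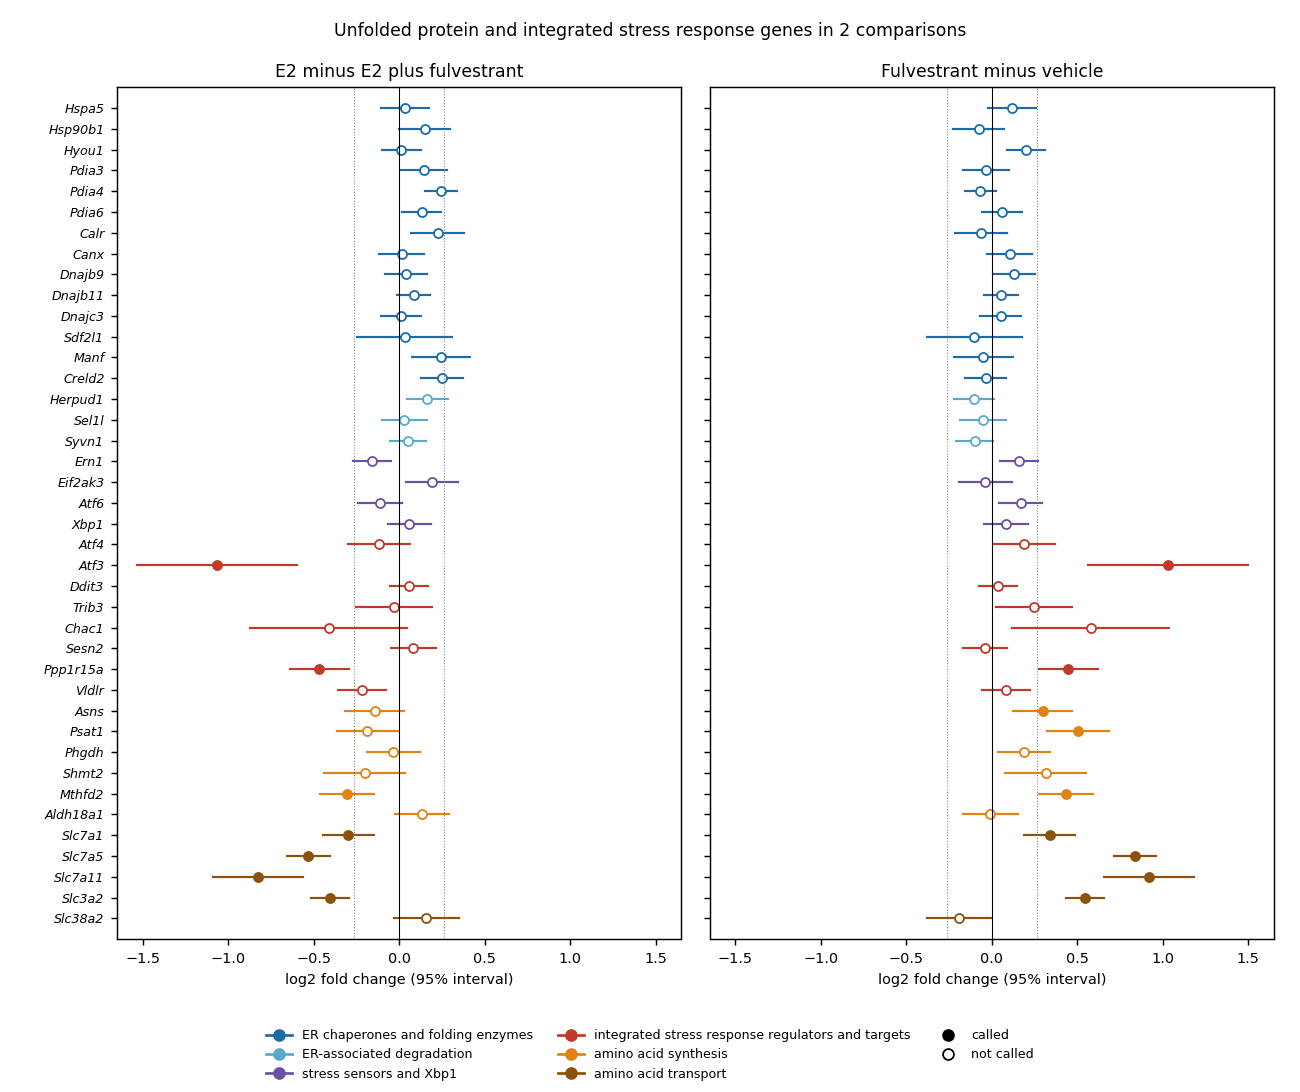
Log2 fold change of the normalized count (plus 1) for each of the 40 genes, E2 minus E2 plus fulvestrant on the left and fulvestrant minus vehicle on the right, with 95% intervals from limma. Filled points passed both the adjusted p and the fold threshold, dotted lines mark a 1.2-fold change, and colours mark the role; the filled points are transporters, amino acid enzymes, Atf3 and Ppp1r15a, and the ER chaperones are all open.

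Slc7a5 (ENSMUSG00000040010, chr8:121881150-121907694 in GRCm38, minus strand) encodes the light chain of LAT1, which imports large neutral amino acids such as leucine. Its normalized counts in replicates 1, 2 and 3 were 6933, 7168 and 6746 with vehicle. They were 8432, 8783 and 7927 with E2. They were 12596, 12068 and 11656 with E2 plus fulvestrant, and 12623, 11848 and 12807 with fulvestrant alone. Both fulvestrant groups lay above every sample without fulvestrant, and the E2 samples lay between them and vehicle with no overlap. The level with E2 was 0.692 times that of the combined treatment, or -0.53 on the log2 scale (SE 0.0564, adjusted p = 0.00022, and 0.011 without the replicate block).

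Slc3a2 (ENSMUSG00000010095, chr19:8706882-8723369, minus strand) encodes the heavy chain 4F2hc (CD98), which pairs with Slc7a5 and with Slc7a11. Its normalized counts were 6585, 6447 and 6211 with vehicle and 6935, 7118 and 7244 with E2. They were 9315, 9357 and 9525 with E2 plus fulvestrant and 8965, 9276 and 9855 with fulvestrant. As for its partner, no sample with fulvestrant overlapped a sample without it. The log2 fold change of E2 against E2 plus fulvestrant was -0.41 (SE 0.0503, adjusted p = 0.00061, and 0.02 without the block).

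Slc7a11 (ENSMUSG00000027737, chr3:49892526-50443614, minus strand) encodes xCT, which imports cystine for glutathione synthesis in exchange for glutamate, and its promoter held the pair of CAREs shown above. Its normalized counts were 301, 2075 and 2193 with vehicle and 387, 2264 and 2087 with E2. They were 657, 4019.9 and 3845 with E2 plus fulvestrant and 484, 4479 and 4299 with fulvestrant. Replicate 1 was far below replicates 2 and 3 in all 4 groups, so the groups overlapped, but within each replicate number both fulvestrant samples were the higher ones. The fitted log2 fold change of E2 against E2 plus fulvestrant was -0.82 (SE 0.119, adjusted p = 0.0015), or 0.565-fold, with values of -0.76, -0.83 and -0.88 in the 3 replicate numbers.

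Slc7a1, which encodes the cationic amino acid transporter CAT1, had normalized counts of 5141, 5969 and 5427 with E2 and of 5945, 7410.2 and 7014 with E2 plus fulvestrant. It had 5202, 5302 and 5596 with vehicle and 5752, 7728 and 7016 with fulvestrant. The E2 group overlapped the combined treatment by 1 sample, and the vehicle and fulvestrant groups were apart. Its log2 fold change of E2 against E2 plus fulvestrant was -0.30 (SE 0.0683, adjusted p = 0.018). The fifth transporter gene, Slc38a2 (SNAT2, a sodium-coupled carrier of neutral amino acids), went the other way without being called. Its log2 fold change was 0.16 (adjusted p = 0.26), with counts from 12858 to 17080 with E2 and from 10105 to 16602 with E2 plus fulvestrant. The median log2 fold change over the 5 transporters was -0.41, beside -0.01 over all genes.

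**Figure D2:**
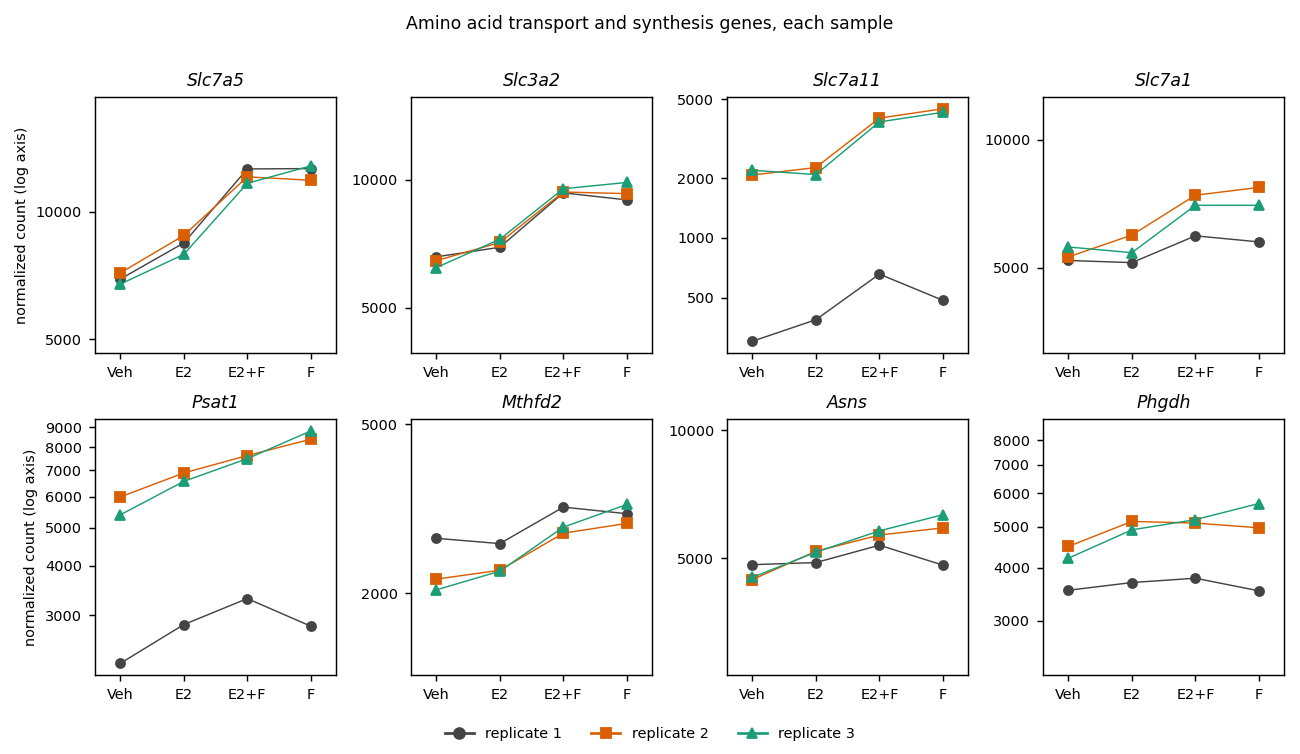
Normalized counts (log axis) of 8 amino acid genes in the 12 samples, by treatment, with lines joining samples of the same replicate number. Slc7a5 and Slc3a2 form tight groups that are higher in both fulvestrant treatments, whereas Slc7a11 and Psat1 lie lower in replicate 1 in every treatment.

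Among the 6 genes of amino acid synthesis, the median log2 fold change of E2 against E2 plus fulvestrant was -0.16, and only Mthfd2 was called. Mthfd2 encodes a mitochondrial enzyme of one-carbon metabolism. Its normalized counts were 2617, 2265 and 2254 with E2 and 3189, 2769 and 2861 with E2 plus fulvestrant, with no overlap. The log2 fold change was -0.31 (SE 0.0718, adjusted p = 0.02). With vehicle the counts were 2693, 2158 and 2036 and with fulvestrant 3077, 2919.7 and 3235.

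Asns, the asparagine synthetase gene and a known Atf4 target, had normalized counts of 4879, 5186 and 5161 with E2 and of 5360.3, 5664 and 5794 with E2 plus fulvestrant. It had 4824, 4448 and 4502 with vehicle and 4812, 5888 and 6323 with fulvestrant. The E2 samples lay below the combined treatment without overlap, yet the change was not called (log2 fold change -0.14, adjusted p = 0.26). Psat1 and Phgdh encode enzymes of serine synthesis. Psat1 had 2839.8, 6889 and 6559 with E2, 3306, 7628 and 7490 with E2 plus fulvestrant, 2263, 5988 and 5392 with vehicle, and 2813, 8391 and 8809 with fulvestrant. Its replicate 1 was the lowest sample in every group, and its log2 fold change of E2 against E2 plus fulvestrant was -0.19 (adjusted p = 0.17). Phgdh had 3695, 5146 and 4916 with E2, 3783, 5101 and 5197 with E2 plus fulvestrant, 3543, 4493 and 4215 with vehicle, and 3532, 4971 and 5671 with fulvestrant. The groups of Phgdh overlapped throughout (log2 fold change -0.03, adjusted p = 0.80). Shmt2, a mitochondrial serine hydroxymethyltransferase gene, and Aldh18a1, a gene of proline synthesis, were not called, with log2 fold changes of -0.20 and 0.13.

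Atf3 encodes a stress-induced transcription factor of the ATF/CREB family (ENSMUSG00000026628, chr1:191170296-191218039, minus strand). The normalized counts were 13.2, 2799.5 and 2418 with vehicle and 15.8, 2699 and 2658 with E2. They were 57.1, 4244 and 4459 with E2 plus fulvestrant and 38.0, 4461 and 4716 with fulvestrant. Replicate 1 was low in every treatment and near the lower limit of the table with vehicle and E2. No sample of replicates 2 and 3 was below 2418. Within each replicate number E2 was the lower value against the combined treatment, with log2 fold changes of -1.79, -0.65 and -0.75 on the scale of normalized count plus 1. The fitted log2 fold change was -1.06 (SE 0.212, adjusted p = 0.009), or 0.478-fold.

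Ppp1r15a (GADD34) encodes the subunit that directs a phosphatase to eIF2 and so restores translation after stress. Normalized counts were 1289, 2131 and 2063 with vehicle and 1430.2, 2069 and 2169.7 with E2. They were 1730.3, 2975 and 3288 with E2 plus fulvestrant and 1563, 3066 and 3003 with fulvestrant. Replicate 1 was again the lowest in each group, and the samples with fulvestrant were higher within every replicate number. The log2 fold change of E2 against E2 plus fulvestrant was -0.47 (SE 0.0776, adjusted p = 0.0035).

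Atf4 itself was not called. Its counts were 9164, 9337 and 9359.7 with E2 and 9152, 10482 and 10695 with E2 plus fulvestrant. They were 9003, 8938 and 8550.0 with vehicle and 8413, 11266 and 10737 with fulvestrant. In replicates 2 and 3 both fulvestrant samples were above both others, and in replicate 1 fulvestrant alone gave the lowest value and the other 3 lay close together. The log2 fold change of E2 against E2 plus fulvestrant was -0.12 (95% interval -0.30 to 0.06, adjusted p = 0.38).

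Ddit3 (CHOP), the factor tied to cell death under lasting ER stress, was nearly level. Its normalized counts were 2949, 2963 and 2862 with vehicle, 3244, 2806 and 2935 with E2, 2891, 2857 and 2871 with E2 plus fulvestrant, and 3048, 2939 and 3021 with fulvestrant. The E2 group overlapped each of the others, whereas the combined treatment lay just below fulvestrant alone, and the log2 fold change of E2 against E2 plus fulvestrant was 0.06 (95% interval -0.05 to 0.17). Of its exon bases, 6.13% are shared with a second annotated entry of the same name. Trib3, a pseudokinase gene induced by Atf4 and CHOP, had 2399, 1544 and 1579 with E2 and 2035, 1697 and 1805 with E2 plus fulvestrant. It had 2193.5, 1462 and 1338 with vehicle and 2132, 1758 and 1917 with fulvestrant. Here replicate 1 moved against replicates 2 and 3, with log2 fold changes of 0.24, -0.14 and -0.19, and the fitted value was -0.03. Chac1, which encodes a glutathione-degrading enzyme, showed the same split (0.09, -0.66 and -0.67) and was not called (log2 fold change -0.41, adjusted p = 0.23). Vldlr, a lipoprotein receptor gene, and Sesn2, a leucine-sensing inhibitor of mTORC1 signalling, were not called, with log2 fold changes of -0.22 and 0.08. The median over the 8 genes of this group was -0.17.

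**Figure D3:**
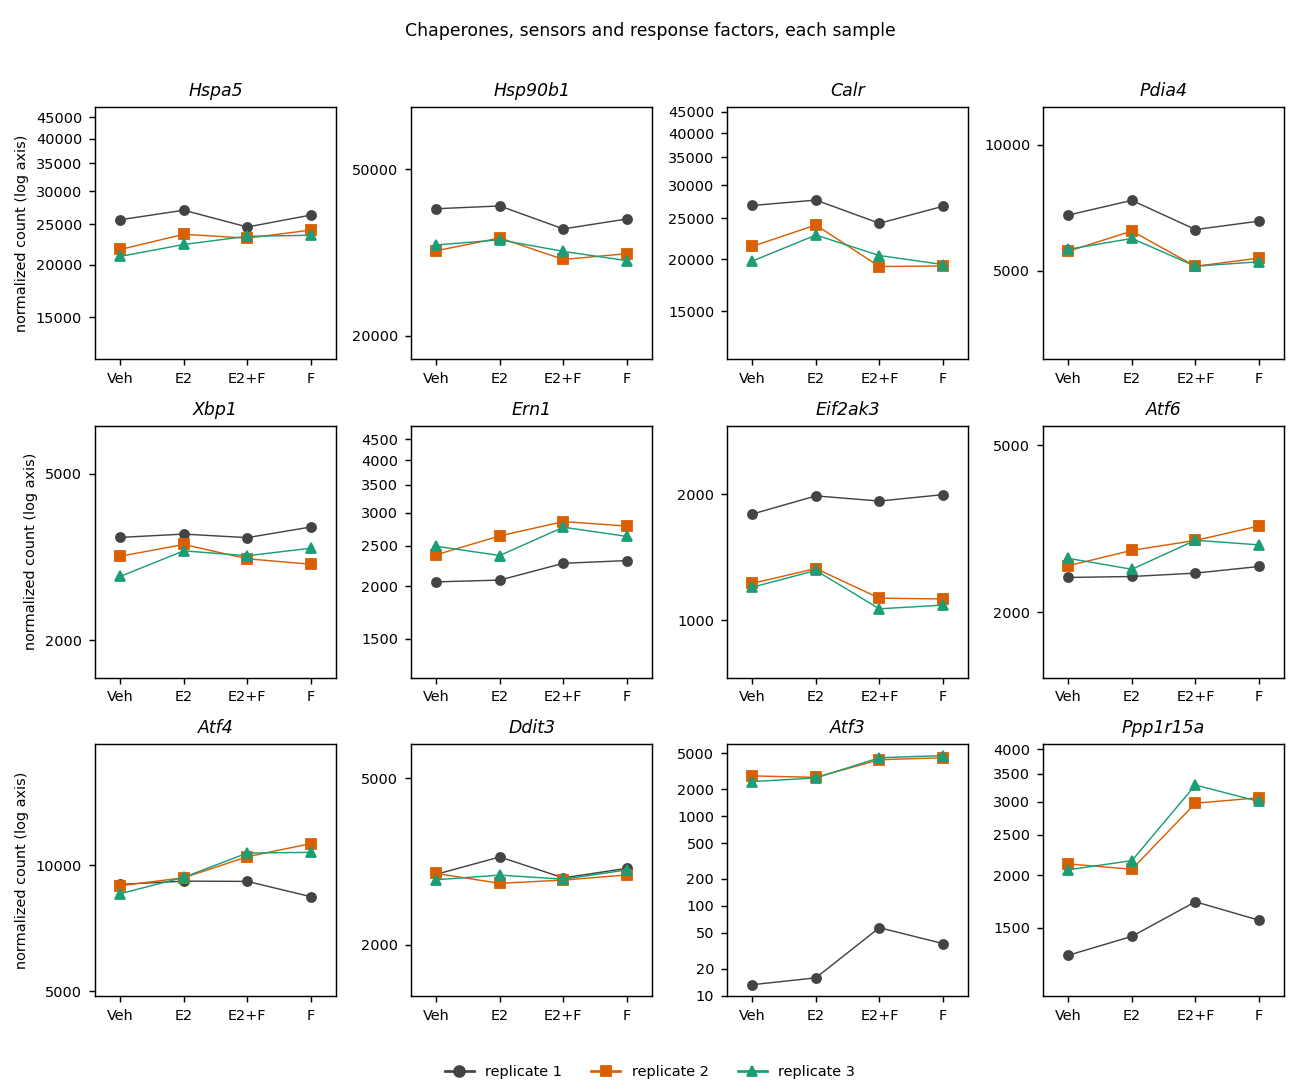
Normalized counts (log axis) of 12 ER stress and integrated stress response genes in the 12 samples, by treatment, with lines joining samples of the same replicate number. No chaperone or sensor gene, nor Atf4 or Ddit3, was called between treatments, whereas Atf3 and Ppp1r15a are higher with fulvestrant in every replicate number and Atf3 is lowest by far in replicate 1.

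Several chaperones were among the most abundant messengers of these cells, but the list spanned a wide range. Per kilobase of exon, the mean normalized count over 12 samples was 8521 for Hsp90b1 (the 99.2 percentile of all genes), 7871 for Calr, 7425 for Pdia3, 5916 for Canx and 5650 for Hspa5. Atf4 stood at 4068 and Slc7a5 at 2688 on the same scale. The lowest members were Slc7a11 at 162, Eif2ak3 at 237 and Sdf2l1 at 252.

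Hspa5 (BiP, the main ER HSP70 chaperone and the common readout of ER stress) had normalized counts of 25637, 21770 and 20957 with vehicle and of 27021, 23669 and 22379 with E2. It had 24637, 23169 and 23410 with E2 plus fulvestrant and 26308, 24224 and 23544 with fulvestrant. All 4 groups overlapped. The log2 fold change of E2 against E2 plus fulvestrant was 0.03 (95% interval -0.11 to 0.17, adjusted p = 0.78).

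Hsp90b1 (GRP94), the ER HSP90 chaperone, had 40870, 34280 and 33921 with E2 and 36022, 30447 and 31833 with E2 plus fulvestrant. It had 40254, 31943 and 32981 with vehicle and 38049, 31434 and 30250 with fulvestrant. Its log2 fold change was 0.15 (adjusted p = 0.18), and 5.38% of its exon bases are shared with other annotated genes. Calr (calreticulin, a chaperone for glycoproteins) had 27663, 24118 and 22823 with E2 and 24352, 19193 and 20392 with E2 plus fulvestrant. It had 26855, 21446 and 19778 with vehicle and 26730, 19256 and 19406 with fulvestrant. Its log2 fold change was 0.23 (adjusted p = 0.061). In both genes replicate 1 was the highest sample of each group, and the groups overlapped.

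All 14 chaperone and folding genes had a positive log2 fold change of E2 against E2 plus fulvestrant, beside 6273 of all 13233 genes. The 14 values ran from 0.01 to 0.25 with a median of 0.11, and none reached the 1.2-fold threshold. Pdia4, a disulfide isomerase gene, and Creld2 passed the adjusted p alone, with log2 fold changes of 0.24 (adjusted p = 0.004) and 0.25 (adjusted p = 0.015). The 95% interval lay within 1.2-fold in either direction for 7 of the 14. The 3 genes of ER-associated degradation, Herpud1, Sel1l and Syvn1, had log2 fold changes of 0.17, 0.03 and 0.05.

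The sensors were not called either. Ern1 had normalized counts of 2071, 2641 and 2371 with E2, 2272, 2858 and 2771 with E2 plus fulvestrant, 2051, 2381 and 2495 with vehicle, and 2306, 2788 and 2634 with fulvestrant. Its log2 fold change of E2 against E2 plus fulvestrant was -0.16 (adjusted p = 0.068). Eif2ak3 had 1982, 1329 and 1315 with E2, 1926, 1129 and 1065 with E2 plus fulvestrant, 1793, 1225 and 1199 with vehicle, and 1995, 1124 and 1087 with fulvestrant. Its replicate 1 was the highest sample of each group, and its log2 fold change was 0.19 (adjusted p = 0.097). Atf6 had 2431, 2808 and 2529.9 with E2, 2477, 2965 and 2968 with E2 plus fulvestrant, 2419, 2579 and 2687 with vehicle, and 2569, 3209.8 and 2893 with fulvestrant (log2 fold change -0.11). Xbp1 had 3586, 3387 and 3270.5 with E2, 3517, 3131 and 3184 with E2 plus fulvestrant, 3521, 3174 and 2841 with vehicle, and 3729, 3038 and 3318 with fulvestrant (log2 fold change 0.06). The groups overlapped for all 4 genes. Gene-level counts do not separate spliced from unspliced Xbp1.

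The call of 7 members rested in part on single libraries and replicate numbers. Mthfd2 lost its call without any one E2 plus fulvestrant library, and Mthfd2 and Slc7a1 both lost theirs without replicate 2 or 3 of either treatment and when the variance trend was dropped. Without replicate 2 in all groups, and likewise without replicate 3, Slc7a5, Slc3a2 and Slc7a11 stayed called and Atf3, Ppp1r15a, Mthfd2 and Slc7a1 did not, while the lower calls over all genes went from 658 to 178 and 138. Without replicate 1 in all groups, 10 members were called, adding Chac1 and Shmt2 as lower and Eif2ak3 as higher with E2, while the calls over all genes went from 658 to 893 lower and from 612 to 718 higher.

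The next question was what fulvestrant did against vehicle, with and without E2. With E2 plus fulvestrant, 9 of the 40 members were higher than with vehicle and 0 were lower, beside 7.04% and 5.66% of all genes. With fulvestrant alone the same 9 were higher and 0 were lower, beside 6.76% and 5.69% of all genes. The 9 were the 7 genes above plus Psat1 and Asns. Both comparisons use the same vehicle samples. Without the replicate block, only Slc7a5 and Slc3a2 stayed called in each, beside 0.242% and 0.302% of all genes called higher.

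Of the 5 transporters, 4 rose in both comparisons. Slc7a5 was 1.74-fold higher with E2 plus fulvestrant than with vehicle (log2 0.80, adjusted p = 1.8e-05, and 0.0016 without the block). With fulvestrant alone it was 1.79-fold higher (log2 0.84, adjusted p = 1.8e-05, and 0.001 without the block). Slc3a2 rose by 0.55 on the log2 scale in both comparisons (adjusted p = 8.4e-05 and 0.0001). Slc7a11 rose 1.95-fold with E2 plus fulvestrant (log2 0.96, adjusted p = 0.00049) and by 0.92 on the log2 scale with fulvestrant (adjusted p = 0.00068). Slc7a1 rose by 0.33 and 0.34 (adjusted p = 0.008 and 0.0079), a call lost in both comparisons without vehicle replicate 2. Slc38a2 had log2 fold changes of -0.23 and -0.19 and was not called, but with E2 plus fulvestrant it was called lower under scaling to the same total and under quantile normalization. The median over the 5 transporters was 0.55 in both comparisons, beside 0.01 over all genes.

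Of the amino acid synthesis genes, Psat1 rose by 0.46 with E2 plus fulvestrant and 0.50 with fulvestrant on the log2 scale (adjusted p = 0.0039 and 0.0025). Mthfd2 rose by 0.36 and 0.43 (adjusted p = 0.0065 and 0.0029), and Asns by 0.29 and 0.30 (adjusted p = 0.028 and 0.026). The Asns change with fulvestrant was carried by replicates 2 and 3, at 0.40 and 0.49, whereas replicate 1 was at -0.00. The Asns call was lost in both comparisons without vehicle replicate 2 or 3, without the variance trend and with scaling to the same total, and in the respective comparison without any one E2 plus fulvestrant library or without fulvestrant replicate 2 or 3. The medians over the 6 genes were 0.28 and 0.31. Atf3 rose 2.25-fold with E2 plus fulvestrant (log2 1.17, adjusted p = 0.0042) and by 1.03 on the log2 scale with fulvestrant (adjusted p = 0.0086). Its single replicate values for the combined treatment were 2.03, 0.60 and 0.88. Ppp1r15a rose by 0.53 and 0.45 (adjusted p = 0.0014 and 0.0036).

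Atf4 was not called in either comparison, with a log2 fold change of 0.19 in both (adjusted p = 0.14 and 0.15). Its changes with fulvestrant alone were -0.10, 0.33 and 0.33 in replicates 1, 2 and 3. Chac1 showed the same order, with -0.16, 0.89 and 1.00 and a fitted value of 0.58 (adjusted p = 0.085). Trib3 and Shmt2 had -0.04, 0.27 and 0.52, and -0.13, 0.54 and 0.54, respectively. Replicate 1 thus lay apart from the other two for several Atf4-type genes, a difference that was not tested. Without replicate 1 in all groups, Atf4, Trib3, Chac1 and Shmt2 were called higher with E2 plus fulvestrant, for 13 members in all, and these plus Phgdh with fulvestrant, for 14. The calls over all genes were then 1057 and 1331 higher, from 932 and 895. Without replicate 2 or without replicate 3, 5 and 4 members stayed called with E2 plus fulvestrant and 3 with fulvestrant alone, which were Slc7a5, Slc3a2 and Slc7a11. The higher calls over all genes then fell from 932 to 376 and 299 and from 895 to 277 and 215.

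None of the ER chaperones was called in these comparisons. The median log2 fold change over the 14 chaperones was -0.02 with E2 plus fulvestrant and 0.01 with fulvestrant (-0.03 when scaled to the same total or quantile normalized). With E2 plus fulvestrant the median reached -0.063 under another processing setting. Of the 14, 6 and 7 were above 0, beside 6798 and 6820 of all 13233 genes. The 95% interval lay within 1.2-fold for 13 and 12 of the 14. Hspa5 had log2 fold changes of 0.06 and 0.12. Ern1 with E2 plus fulvestrant (0.19, adjusted p = 0.029) and Hyou1, an ER chaperone gene, with fulvestrant (0.20, adjusted p = 0.023) passed the adjusted p but not the fold threshold.

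E2 alone against vehicle gave 0 called members, beside 0.0756% of all genes called in either direction (10 higher and 0 lower, limma). At an unadjusted p below 0.05 there were 10 members, beside 10.1% of all genes. Slc7a5 was at 0.27 on the log2 scale, with 0.28, 0.29 and 0.23 in the 3 replicate numbers, no overlap between groups, and an adjusted p of 0.21. Slc3a2 also did not overlap between the groups (log2 fold change 0.15, adjusted p = 0.47). The chaperones ranged from -0.03 to 0.17 with a median of 0.12 (0.060 with quantile normalization). For Slc7a5 and Slc3a2 the E2 samples were thus on the same side of vehicle as the fulvestrant samples, at a smaller distance.

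No member was called when E2 plus fulvestrant was compared with fulvestrant alone. Between E2 plus fulvestrant and fulvestrant the 40 log2 fold changes lay from -0.14 to 0.14, and the 95% interval lay within 1.2-fold in either direction for 34 of 40. No gene of the whole table was called, and 0 members but 1.93% of all genes had an unadjusted p below 0.05. Whether the change with E2 differed with and without fulvestrant was tested as an interaction, and 0 members and 0 of all genes had an adjusted p below 0.05 (limma). At an unadjusted p below 0.05 there were 6 members, beside 3.79% of all genes. The interaction of Slc7a5 was 0.31 on the log2 scale (unadjusted p = 0.0028, adjusted p = 0.944).

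**Figure D4:**
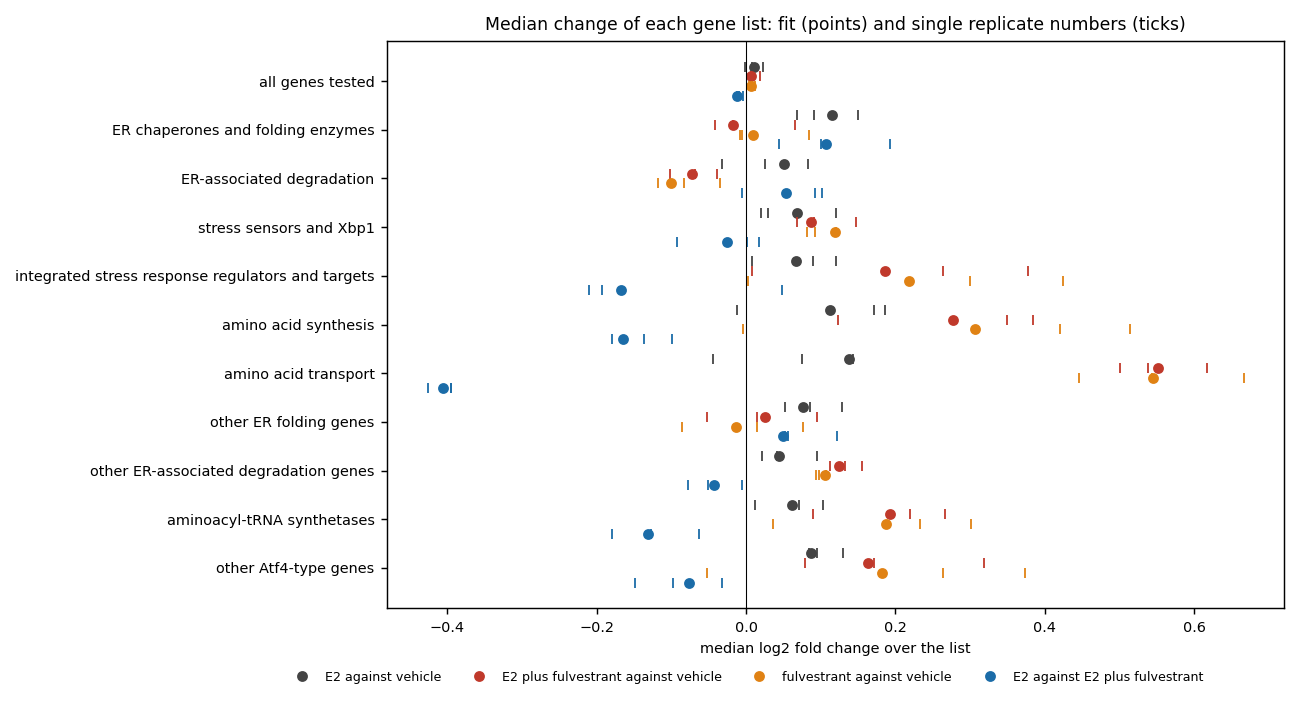
Median log2 fold change over each gene list in 4 comparisons, as points from the fit and as ticks for each replicate number alone. The amino acid transport list lies near 0.55 in both fulvestrant comparisons against vehicle and at -0.41 for E2 against E2 plus fulvestrant. The ER chaperone list lies near 0 in both fulvestrant comparisons against vehicle. For E2 against E2 plus fulvestrant this list lies at 0.11, and for E2 against vehicle at 0.12. The median of all genes lies near 0 in each comparison.

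More members differed between replicate numbers than in any of the 5 treatment comparisons made. Of the 40, 31 differed between replicate numbers at an adjusted p below 0.05, 77.5% against 62.5% of all genes. Replicate 1 lay above every sample of replicates 2 and 3 for 14 members and below every one for 9. Among all genes these shares were 21.6% and 23.4%. Of the chaperones, 8 lay above and 1 below. Herpud1, Eif2ak3 and Creld2 were higher in replicate 1 by 0.66, 0.70 and 0.45 on the log2 scale. Of the amino acid transport, amino acid synthesis and integrated stress response genes, 2 in each list lay below, and 0, 1 and 1 lay above, the last 2 being Aldh18a1 (0.34) and Trib3 (0.43). Atf3 was 127-fold lower in replicate 1, at 13.2 to 57.1 against 2418 to 4716, and ranked 1 among all 13233 genes in the size of this difference. Slc7a11 was 6.80-fold and Psat1 2.54-fold lower, and Ppp1r15a, Slc38a2 and Phgdh differed by -0.77, -0.51 and -0.44. Slc7a5 and Slc3a2 did not differ detectably between replicate numbers (adjusted p = 0.579 and 0.752).

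**Figure D5:**
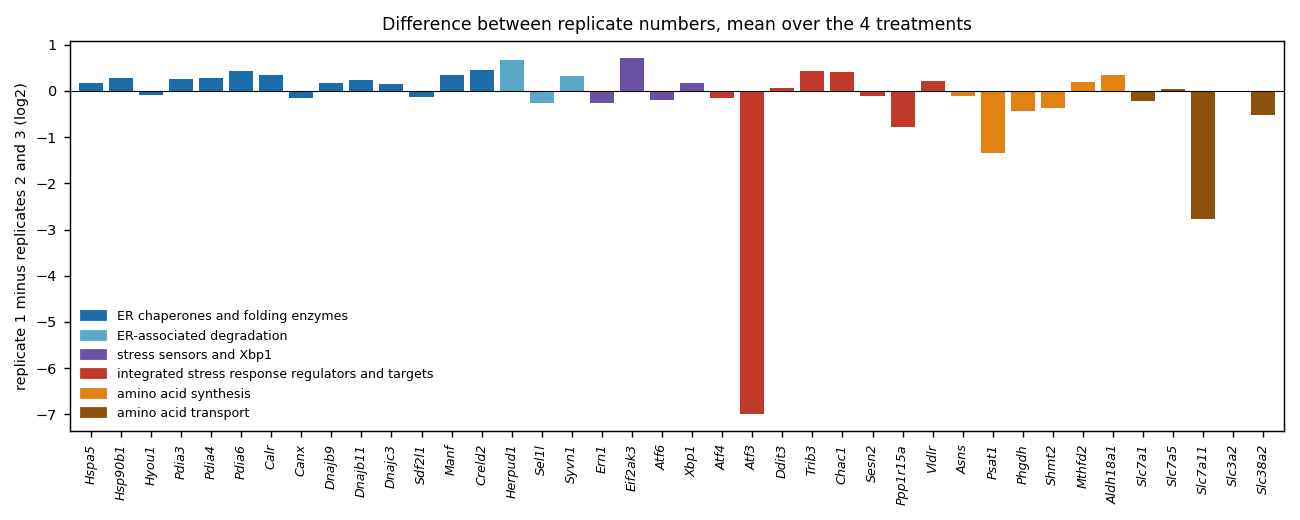
Difference in log2(normalized count plus 1) between replicate 1 and the mean of replicates 2 and 3, averaged over the 4 treatments, for each of the 40 genes. Bars below 0 are lower in replicate 1, with Atf3 at -6.98 and Slc7a11 at -2.77, whereas most chaperones lie above 0.

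Other genes of the same pathways were read from further lists. Among 20 aminoacyl-tRNA synthetase genes, the median log2 fold change of E2 against E2 plus fulvestrant was -0.13. Of the 20, 18 were below 0, beside 6960 of all 13233 genes. Only Rars (arginyl-tRNA synthetase) was called, and it was lower (log2 fold change -0.43, adjusted p = 0.008). Its replicate 1 was the lowest sample of every group. This share, 1 of 20, is near the 4.97% of all genes called lower. Against vehicle, 5 of the 20 rose with E2 plus fulvestrant and 4 with fulvestrant, with 0 lower, beside 7.04% and 6.76% of all genes called higher. Among 21 further Atf4-type genes, Slc1a5, a glutamine transporter gene (log2 fold change -0.71, adjusted p = 0.0034), and Cebpb, a transcription factor gene that pairs with Atf4 (-0.56, adjusted p = 9.3e-05), had lower levels with E2 alone than with the combined treatment. Pycr1, a gene of proline synthesis, was higher (0.62, adjusted p = 0.0024). Against vehicle, 6 of these 21 rose and 1 fell with each fulvestrant treatment, beside 7.04% and 6.76% of all genes called higher and 5.66% and 5.69% called lower.

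Of 18 other ER folding genes, Ero1l, an ER oxidase gene, was lower with E2 alone than with the combined treatment (log2 fold change -0.46, adjusted p = 0.0034). Its replicate 1 was far below replicates 2 and 3 in every group. Its normalized counts were 2607, 15348 and 14804 with E2 and 3357, 21257 and 21824 with the combined treatment. Sec61b, a subunit of the ER translocon, was higher with E2 (0.29, adjusted p = 0.039). This share, 1 of 18 in each direction, is near the 4.97% and 4.62% of all genes called lower and higher. Their median was 0.05. Of 14 listed genes of other ER-associated degradation, the ubiquitin-conjugating enzyme genes Ube2g2 (-0.49, adjusted p = 0.00051) and Ube2j1 (-0.32, adjusted p = 0.0019) were lower with E2, and the median was -0.04. The Ube2g2 exons share 10.3% of their bases with other annotated entries. Of 5 listed genes for eIF2 kinases and phosphatase parts, 0 were called in this comparison. Against vehicle, 1 of these 5 rose with E2 plus fulvestrant, and 1 rose and 1 fell with fulvestrant. Of the 18 ER folding genes 1 rose, and of the 14 degradation genes 2 rose, with each fulvestrant treatment, beside 7.04% and 6.76% of all genes. None of the genes of these further lists was called without the replicate block.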

How the data were processed

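Total RNA from 12 samples was sequenced after ribosomal RNA depletion (KAPA RNA HyperPrep with RiboErase). The authors used Trimmomatic 0.39 for trimming, SortMeRNA against ribosomal reads, STAR 2.5.2 for alignment (mm10) and HTSeq 0.13.5 for reverse-strand counting per gene. The authors then dropped counts below 10 and scaled the rest with size factors (medians of ratios) from DESeq2 1.37. The deposited table holds these normalized counts (a signal: reads divided by one factor per sample). The methods also name batch correction of unnamed batches. The values equalled whole reads over one inferred factor per sample, within 0.01 read. This does not show whether the counts were corrected before scaling. Since no gene has under 10 reads, a single read is not seen in the table and the read totals are estimates. A gene removed by the minimum is not listed.

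Symbols came from GENCODE vM21 (13149 of 13233 identifiers). Limma 3.58.1 in R 4.3.3 was fitted to log2(normalized count + 1) of all 13233 genes and 12 samples with treatment and replicate number, with a variance trend and Benjamini-Hochberg adjustment over all genes. This leaves 6 residual degrees of freedom. A fold change on this scale understates the change of low genes. Replicate numbers came from the labels. Deviations from group means of the 18 same-numbered pairs correlated at 0.63 to 0.92, and the number was kept as a block. Differently numbered pairs were not compared, so this does not show that replicates 2 and 3 are matched by number. Tables and plots were made with Python 3.11.15, pandas 2.3.3 and matplotlib 3.10.9, and the fit was tested on simulated data.

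The members and lists were chosen with earlier results of these data known. All 40 members were reported by role. Sample values were given for members called in E2 against E2 plus fulvestrant and for 13 further genes of central role or of the amino acid group. From each other list, up to 3 genes per direction with the largest called change were named. Pgr served as a check that E2 and E2 plus fulvestrant differed, which does not separate the action of E2 from that of fulvestrant. Values of other named genes, single replicate values and Slc38a2 counts were chosen after the data were seen.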

Additional observations from a re-analysis of the deposited data

How the results depend on the processing

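Medians near 0 changed sign under some alternatives: the chaperone median of E2 plus fulvestrant against vehicle (-0.018) reached 0.036 and the amino acid median between the fulvestrant groups (-0.037) reached 0.027 when libraries were left out, and the chaperone median of fulvestrant against vehicle (0.0090) reached -0.031 with scaling to the same total. No called member changed direction. Without the replicate block, 69 genes were called for E2 against E2 plus fulvestrant, 1 for E2 against vehicle, 60 for E2 plus fulvestrant against vehicle and 72 for fulvestrant against vehicle, with 2 members in each but the second, which had 0. Fitting only the 2 groups compared gave 57 genes for E2 against vehicle and 692 for fulvestrant against vehicle (6 members, without Asns, Mthfd2 and Slc7a1). For E2 against vehicle, dropping the variance trend gave 3 genes and a block of replicate 1 against 2 and 3 gave 17. Quantile normalization moved the median of the 11 amino acid genes in E2 against E2 plus fulvestrant from -0.20 to -0.16 and that of the chaperones in E2 against vehicle from 0.12 to 0.060. Leaving out single libraries or one replicate number gave 316 to 1611 genes and 3 to 10 members for E2 against E2 plus fulvestrant, 0 to 59 genes for E2 against vehicle, 541 to 1916 genes and 4 to 13 members for E2 plus fulvestrant against vehicle, 399 to 2312 genes and 3 to 14 members for fulvestrant against vehicle, 0 to 4 genes between the fulvestrant groups and 0 to 11 for the interaction. The amino acid median of E2 against E2 plus fulvestrant ranged from -0.27 to -0.17, and the chaperone median between the fulvestrant groups from -0.055 to -0.022. Without fulvestrant replicate 1 alone 13 members were called for fulvestrant against vehicle. Scaling to the same total changed the share of calls that were higher from 55.4% to 41.9% (E2 plus fulvestrant against vehicle) and from 54.3% to 42.3% (fulvestrant against vehicle). The cause of these changes was not tested, except that leaving out samples leaves fewer of them. The planned tests on recovered read counts were not run. Genes under the authors' minimum of 10 reads cannot be assessed at this depth.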

Other observations

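Atf3 ranked first in the difference between replicate 1 and replicates 2 and 3, and the genes next in rank, named after their values were seen, were of varied kinds. Plac8 stood at 15.8 to 21.0 normalized counts in the 4 replicate 1 samples and at 1165 to 1610 in the other 8, a log2 difference of -6.10. Avpr1a and Pgm5 differed by -6.03 and -5.57. Tnmd, a tendon marker, was higher in replicate 1 by 5.47. Hspa1a, which encodes the cytosolic stress-induced HSP70, ranked 6 with a difference of -5.43, at 115 to 226 against 4533 to 10591. The ER counterpart Hspa5 was higher in replicate 1 than in replicates 2 and 3 in each treatment. The part of these differences in the results was not tested.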
